A study of Mus musculus with 41 samples.

Results

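Transcripts of 8 genes whose enzymes make NADPH, or run the pathway that makes it, were followed through healthy liver, fatty liver, steatohepatitis and liver tumours of mice. The genes were Nnt, Me1, Idh1, Idh2, G6pdx, Pgd, Taldo1 and Tkt, found by symbol among the 24511 genes of the deposited expression table. All 8 were among the 12337 genes whose mean value was at least 3 and which entered the tests. The list was chosen by values of these libraries already known: Nnt by its differences between genotypes and the 4 pentose phosphate genes G6pdx, Pgd, Taldo1 and Tkt by their levels in tumours. Those values are therefore given as descriptions, without a test.

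The tissue was liver or liver tumour of male mice labelled as strain C57BL/6, with no substrain and no age given, and the RNA was polyA-selected. Groups carry the genotype names of the labels, which do not explain them: B6, MupHe, IgAkMup, CD8kMup and IgAkCLM. At the stage labelled NC, a term the labels leave unexplained, the livers were called healthy, and B6, MupHe, IgAkMup and CD8kMup had 3 libraries each. On a high-fat diet (HFD), B6 and IgAkCLM gave HFD control libraries of fatty liver called healthy (3 each), and MupHe and IgAkMup gave NASH (steatohepatitis) libraries (3 each). Also on HFD, MupHe (4), IgAkMup (4) and CD8kMup (3) gave HCC (liver tumour) libraries. These 35 libraries formed 11 groups and are named by group and by the number in the table's column name, or in the sample title for NC. The labels do not say that the samples of a group came from separate animals, so p-values measure only the spread between these samples, which may be technical.

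NADPH supplies electrons for fatty acid and sterol synthesis and for the reductases that keep glutathione and thioredoxin reduced. In the cytosol it is made by glucose-6-phosphate dehydrogenase (G6pdx) and phosphogluconate dehydrogenase (Pgd) in the oxidative pentose phosphate pathway, by malic enzyme (Me1) and by isocitrate dehydrogenase (Idh1). Transketolase (Tkt) and transaldolase (Taldo1) make no NADPH themselves: they return pentose phosphates to glycolysis, from which carbon can re-enter the oxidative steps. In mitochondria it is made by another isocitrate dehydrogenase (Idh2) and by nicotinamide nucleotide transhydrogenase (Nnt), which uses the proton gradient to pass electrons from NADH. The C57BL/6J substrain is known to carry a deletion of several exons of Nnt that C57BL/6N lacks; the values here are 1 per gene and do not resolve exons.

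On the mouse genome build GRCm38, which is mm10, all 8 are annotated as protein-coding genes in GENCODE. Nnt lies at chr13:119335448-119408997, Me1 at chr9:86581371-86695953, Idh1 at chr1:65158616-65186500 and Idh2 at chr7:80094846-80115392. G6pdx lies at chrX:74409483-74429194, Pgd at chr4:149149991-149166771, Taldo1 at chr7:141392199-141402968 and Tkt at chr14:30548359-30574720. Another GENCODE record named Nnt covers nearly the same bases (chr13:119335528-119408952), and the table holds 1 row of that symbol.

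RefSeq promoter windows of GRCm38.p6 were at hand for 7 of the 8 genes, all but Nnt. They were searched for the antioxidant response element core TGACNNNGC on both strands. The 250 bases before the RefSeq start are printed for Pgd, Taldo1 and Tkt, because the pentose phosphate genes are described together in tumours; G6pdx is not printed, since GENCODE places its whole window in the 5′ UTR. The annotations place the starts differently: the RefSeq start lies downstream of the GENCODE gene start by 772 bases in Tkt, 314 in G6pdx and 66 in Pgd, and upstream of it in Taldo1. GENCODE exons of the same gene cover 129 of the 250 bases in Tkt and 66 in Pgd.
Pgd, chr4:149166706-149166955, minus strand: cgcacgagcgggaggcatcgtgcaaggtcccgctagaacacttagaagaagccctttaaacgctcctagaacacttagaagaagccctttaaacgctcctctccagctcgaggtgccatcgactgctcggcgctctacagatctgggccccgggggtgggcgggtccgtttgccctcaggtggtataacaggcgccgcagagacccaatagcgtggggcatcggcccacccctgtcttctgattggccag
Taldo1, chr7:141391910-141392159, plus strand: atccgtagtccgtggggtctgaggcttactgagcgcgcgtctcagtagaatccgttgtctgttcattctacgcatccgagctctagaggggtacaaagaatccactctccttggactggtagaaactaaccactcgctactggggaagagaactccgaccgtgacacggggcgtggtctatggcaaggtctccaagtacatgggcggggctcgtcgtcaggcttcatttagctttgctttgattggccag
Tkt, chr14:30548881-30549130, plus strand: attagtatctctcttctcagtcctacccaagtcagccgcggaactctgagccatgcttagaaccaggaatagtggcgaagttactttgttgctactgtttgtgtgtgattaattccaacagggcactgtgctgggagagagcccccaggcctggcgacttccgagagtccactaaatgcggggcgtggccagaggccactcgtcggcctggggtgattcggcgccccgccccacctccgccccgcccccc
None of these 3 held the core; G6pdx held it, as GCTCAGTCA at bases 194 to 202, which reads TGACNNNGC on the opposite strand. Of 32851 promoter windows in the RefSeq table, 10.16% held the core within the 250 bases before the start. When the search was widened to 50 bases past the start, a choice made after the first search, Me1 also matched with TGACTCAGC at bases 245 to 253, and 12.39% of all windows did. The first letters of that match, TGACTCA, are also the AP-1 motif. The sterol element TCACNCCAC was found in 0 of the 7 windows and in 1.242% of all windows of that width. These matches describe letters in a window, and no binding was measured.

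The values are regularized log2 (rlog) values as deposited. They carry no correction for transcript length, so the levels of different genes are not compared, and the sequencing depth behind them is unknown. Differences are in log2 units with the standard error (SE) of the linear model, and a gene passed where limma's Benjamini-Hochberg adjusted p over the 12337 genes was under 0.05. IgAkMup HCC 5, IgAkMup HCC 9 and MupHe HCC 3 stood apart from the other tumours on the second principal component (12.6% of the variance), at -28.4, -35.6 and -29.1 against -5.12 to 24.7. Tumour results are therefore also given without these 3. All 4 hepatocyte markers in the table were above 0 in every group. A tag in the column names differs between NC livers, HFD livers without tumour, and tumours. Within HFD control and within NASH it also differs between the genotypes, so there tag and group cannot be told apart. B6 HFD control shares its tag with IgAkMup NASH, and IgAkCLM HFD control shares its tag with MupHe NASH. The NC genotypes share 1 tag, and so do the HCC genotypes. Where the NASH to HCC differences of MupHe and IgAkMup are compared, tag and genotype therefore cannot be told apart.

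Nnt was highest in B6 livers at both stages that had B6, and among the other genotypes MupHe stood highest at every stage it was measured. In NC livers Nnt was 10.02, 10.06 and 10.09 in B6, and 9.38, 9.41 and 9.44 in MupHe. In the other NC genotypes it was 8.83, 8.84 and 8.84 in IgAkMup and 8.56, 8.73 and 8.93 in CD8kMup. B6 and MupHe overlapped no other NC genotype, while IgAkMup and CD8kMup overlapped each other. Unlogged, the mean MupHe level was 63.8% of B6, the IgAkMup level 42.9% and the CD8kMup level 40.1%. The mean of the 3 Mup genotypes minus B6 was -1.06 ± 0.15 (SE), the 60th largest of 12337 absolute differences in a comparison where 0.203% of genes passed and 2.42% were lower without overlap. Ranks of Nnt between genotypes only describe it, since it was chosen by such differences.

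**Figure D1:**
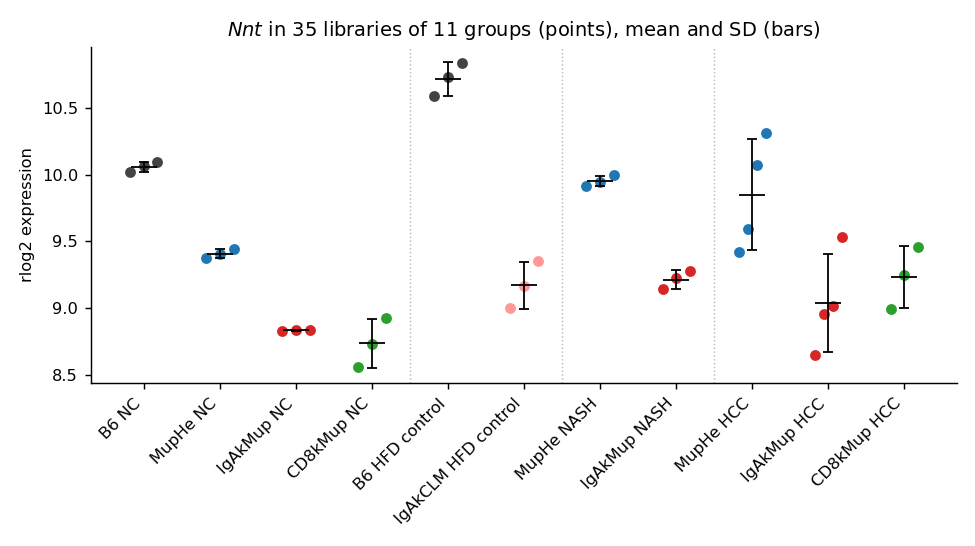
Nnt expression (rlog2, y axis) in each of 35 libraries, grouped by genotype and stage on the x axis; points are libraries, horizontal bars are group means and whiskers 1 SD, and dotted lines part the stages. B6 controls lie at 10.58 to 10.83 on HFD and 10.02 to 10.09 in NC, above every IgAkMup, IgAkCLM and CD8kMup library.

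IgAkCLM had no NC group, so the spread between genotypes on HFD is not set against that in NC. B6 controls stood at 10.58, 10.73 and 10.83, and IgAkCLM controls at 9.0, 9.16 and 9.35, which is 34.3% of the B6 level (difference -1.54 ± 0.18). That was the 38th largest difference between these groups, again only a description. In this pair 5.16% of genes passed and 17.5% were lower without overlap. In NASH, MupHe gave 9.92, 9.95 and 9.99 and IgAkMup gave 9.14, 9.23 and 9.28, a level of 60.0% (difference -0.74 ± 0.18). These NASH ranges did not overlap, as was so for 17% of all genes on the lower side. IgAkMup NASH minus B6 HFD control was -1.5 ± 0.18, whereas MupHe NASH minus IgAkCLM HFD control was 0.78 ± 0.18. Neither pair overlapped, against 8.71% of genes lower without overlap in the first and 13.6% higher in the other. The direction of Nnt between NASH and control thus differed with the genotypes paired, and genotype and stage cannot be told apart in either pair.

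Among tumours the order of the means was MupHe, CD8kMup, IgAkMup, and the ranges overlapped. MupHe HCC read 9.42, 9.59, 10.07 and 10.31, CD8kMup HCC 8.99, 9.25 and 9.46, and IgAkMup HCC 8.65, 8.96, 9.02 and 9.53. IgAkMup minus MupHe HCC was -0.81 ± 0.15 (57.1% of the MupHe level) and CD8kMup minus MupHe HCC -0.62 ± 0.17 (65.2%). CD8kMup and IgAkMup HCC differed by 0.19 ± 0.17, within the spread of either group.

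Ordered by mean, the 11 groups ran from B6 HFD control through B6 NC to MupHe NASH, MupHe HCC and MupHe NC, and then to CD8kMup HCC, IgAkMup NASH, IgAkCLM HFD control, IgAkMup HCC, IgAkMup NC and CD8kMup NC. B6 HFD control did not overlap B6 NC, and B6 NC did not overlap MupHe NASH; from there on each group overlapped the next. The 5 genes tested on each side of Nnt along chromosome 13 (Itga1, Pelo, Parp8, Emb and Mrps30 on one, Paip1, 4833420G17Rik, Tmem267, Hmgcs1 and Nim1k on the other) were examined in the same comparisons. The first side lies 948 to 4245 kb from Nnt and the other 19 to 301 kb. None of the 10 passed by limma between MupHe and B6 NC (0.0486% of genes passed), between IgAkMup or CD8kMup and MupHe NC (0.0162% and 0.0162%), between the NASH genotypes (3.02%) or between the HFD controls. At an unadjusted p under 0.05 there were 0, 1, 0, 2 and 4 of the 10 in these comparisons, in that order. The shares of all genes at that unadjusted threshold are not given here, so these counts only describe the neighbours. With so few genes passing in NC, the counts there cannot set the neighbours apart from Nnt. The largest neighbour difference between IgAkMup and MupHe NC was 0.56 (Tmem267), where Nnt differed by -0.57. In size it was 0.35 between MupHe and B6 NC (Nnt -0.65) and 0.27 between CD8kMup and MupHe NC (Nnt -0.67). Emb and Tmem267 passed between IgAkMup and MupHe HCC (10.1%), and 5 of the 10 had an unadjusted p under 0.05, again without the share of all genes. Between these tumours 508 genes were higher and 741 lower, and 628 and 583 after quantile normalization. Across the 11 group means, the genes most like Nnt by Pearson correlation were Mdp1 (r = 0.83), Hsp90aa1 (0.82), Dpp9 (0.82), C330013E15Rik (0.81) and Gpatch3 (0.81). These r values are descriptions over groups that differ in genotype, diet and column tag.

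Within a genotype, Nnt could be tested between stages. From NC to any HFD group, diet, column tag and the processing noted by the submitters also change, and cannot be told apart from stage. Nnt rose in B6 from NC to HFD control by 0.66 ± 0.18 (limma adjusted p = 0.00946). The 3 libraries of each group did not overlap, in a comparison where 20.6% of genes passed and 9.59% rose. It rose from CD8kMup NC to CD8kMup HCC by 0.49 ± 0.18 (limma adjusted p = 0.0326), also without overlap, where 33.8% of genes passed and 16.8% rose. That call was lost when any one of CD8kMup HCC 4, CD8kMup HCC 8, CD8kMup NC 1 or CD8kMup NC 3 was left out (differences of 0.38 to 0.49, adjusted p 0.0715 to 0.142). From NC to NASH the difference was 0.54 ± 0.18 in MupHe (limma adjusted p = 0.121; 1.93% of genes passed) and 0.38 ± 0.18 in IgAkMup (0.169; 12.9%). Neither passed, though NC and NASH did not overlap in either genotype (16.5% and 22.6% of genes were higher without overlap). Both passed when only the compared groups entered the fit (limma adjusted p = 0.000470 and 0.00618), and with library weights (0.000426 and 0.00329). From NASH to HCC Nnt differed by -0.10 ± 0.17 in MupHe and by -0.18 ± 0.17 in IgAkMup, and by -0.14 ± 0.12 in their mean (95% interval -0.38 to 0.10).

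Among the pentose phosphate genes G6pdx stood higher in every MupHe and IgAkMup tumour than in the NASH livers, Pgd and Tkt did so in MupHe, and Taldo1 in neither genotype. In IgAkMup, Pgd, Tkt and Taldo1 overlapped NASH. G6pdx, the enzyme of the first oxidative step, read 5.47, 5.60 and 5.94 in MupHe NASH and 6.45, 6.57, 7.52 and 7.52 in MupHe HCC. In IgAkMup it read 5.73, 5.82 and 5.91 in NASH and 6.32, 6.38, 6.50 and 6.57 in HCC. Every tumour library, the 3 of CD8kMup included (6.58, 6.91 and 7.45), lay above every one of the 24 non-tumour libraries, the highest of which was 6.22. The share of all genes that part these libraries in this way was not counted. The mean difference of HCC from NASH over both genotypes was 0.98 ± 0.16, a 1.98-fold higher level. In that comparison 48.4% of genes passed, 25.5% as higher and 22.9% as lower, and 6.42% stood higher in all tumours than in all NASH livers. Within MupHe, 30.7% of genes passed and 14.9% stood higher without overlap; within IgAkMup the shares were 43.8% and 20.9%.

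Pgd, the next oxidative enzyme, read 8.54, 9.06 and 9.17 in MupHe NASH and 9.83, 10.05, 10.42 and 10.76 in MupHe HCC, with no overlap. In IgAkMup it read 8.97, 9.01 and 9.28 in NASH and 8.97, 9.37, 10.42 and 11.49 in HCC, where IgAkMup HCC 5 was at the NASH level. The difference was 1.34 ± 0.36 in MupHe, 0.98 ± 0.36 in IgAkMup and 1.16 ± 0.25 in their mean. The IgAkMup value was 0.50 without IgAkMup HCC 8 and 0.49 with library weights. Tkt was higher by 0.94 ± 0.37 in MupHe, from 9.89, 10.15 and 10.35 in NASH to 10.61, 10.66, 11.46 and 11.54 in HCC, again with no overlap. In IgAkMup, Tkt read 10.20, 10.29 and 10.42 in NASH and 9.84, 10.09, 10.75 and 12.62 in HCC, a difference of 0.52 ± 0.37. That difference rested on IgAkMup HCC 8: without it the value was -0.08.

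**Figure D2:**
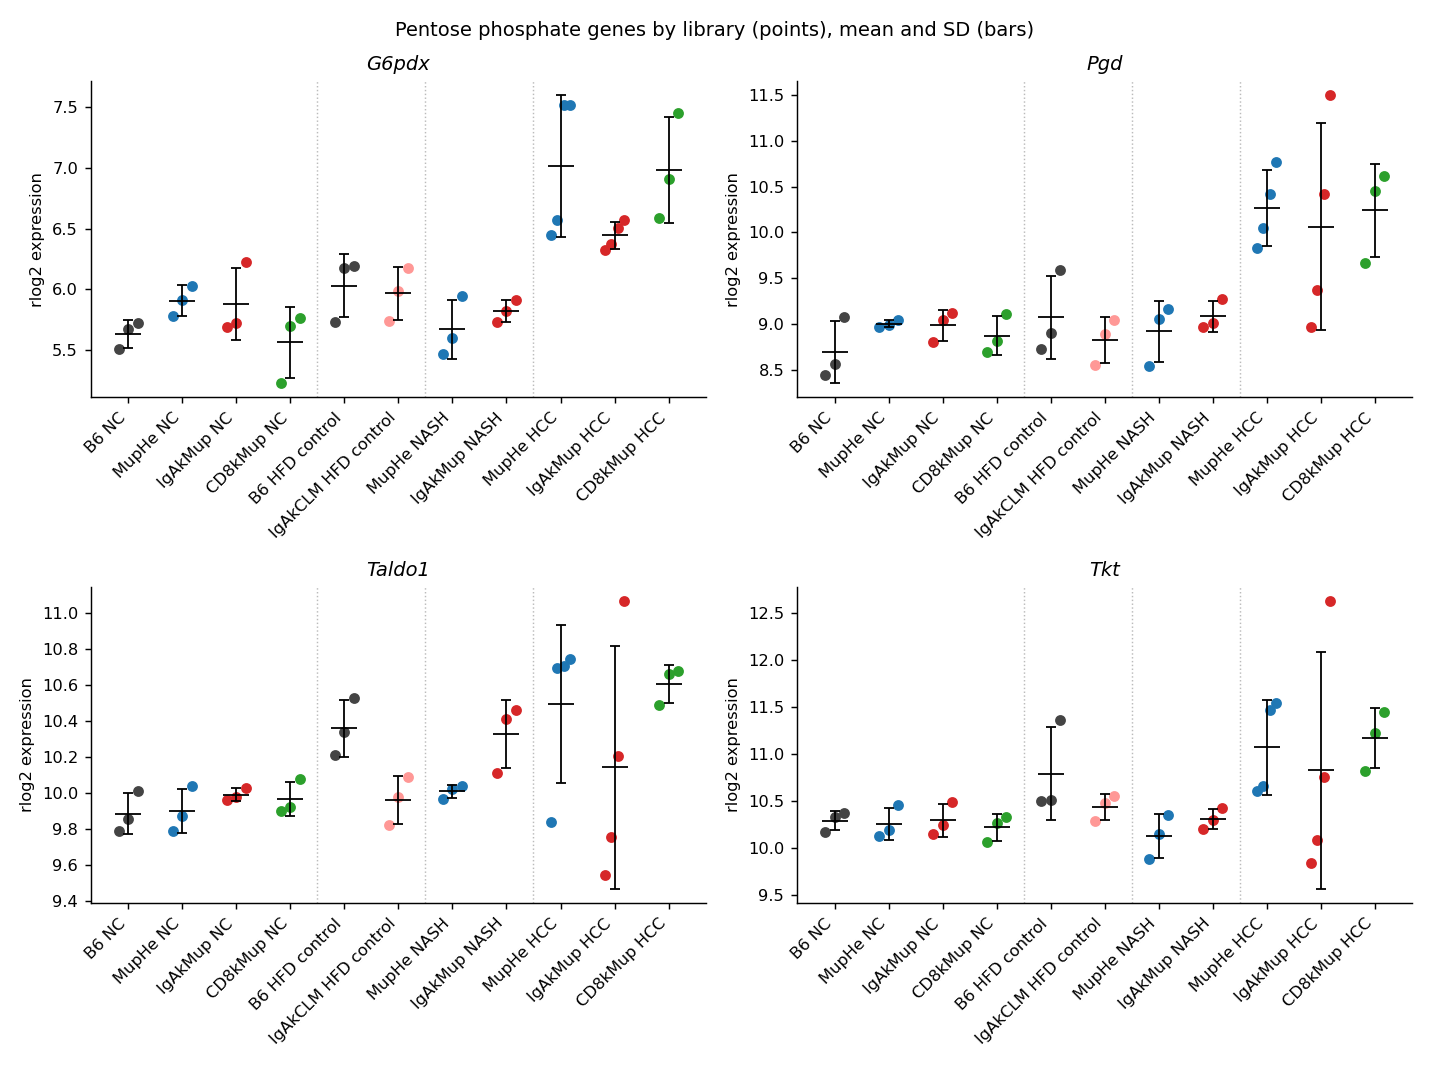
G6pdx, Pgd, Taldo1 and Tkt (rlog2, y axes with separate ranges) in each library of 11 groups on the x axis; points are libraries, horizontal bars group means and whiskers 1 SD. All 11 tumour libraries exceed all others in G6pdx, and the share of all genes that do so was not counted. In Taldo1 and Tkt the IgAkMup tumours spread from below to above the IgAkMup NASH livers.

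Taldo1 differed least, by 0.15 ± 0.16 in the mean of both genotypes. In MupHe it read 9.97, 10.02 and 10.04 in NASH and 9.84, 10.69, 10.71 and 10.74 in HCC, so 3 tumours stood above and MupHe HCC 3 below all NASH livers. In IgAkMup it read 10.11, 10.41 and 10.46 in NASH and 9.54, 9.75, 10.21 and 11.06 in HCC (difference -0.19 ± 0.22). Without the 3 tumours that stood apart, the mean difference was 0.51 for Taldo1, 1.58 for Pgd, 1.24 for Tkt and 0.95 for G6pdx. The 2 IgAkMup tumours then remaining lay 1.87 above NASH in Pgd and 1.38 in Tkt.

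CD8kMup tumours could be set only against CD8kMup NC livers, so stage, diet and column tag change together. G6pdx differed by 1.42 ± 0.24, Pgd by 1.37 ± 0.38, Tkt by 0.94 ± 0.40 and Taldo1 by 0.64 ± 0.24. In all 4 genes every tumour stood above every NC liver, as 27.5% of all genes did in this pair. The tumours read 9.66, 10.45 and 10.61 for Pgd, 10.48, 10.66 and 10.67 for Taldo1 and 10.82, 11.22 and 11.45 for Tkt. Between tumour genotypes, G6pdx in CD8kMup lay above all IgAkMup tumours (6.32 to 6.57), as 12.2% of genes did, and MupHe (6.45 to 7.52) overlapped both. Pgd, Taldo1 and Tkt overlapped between all pairs of tumour genotypes. Across the 11 group means the genes most like G6pdx were Adsl (r = 0.98), Slc11a1 (0.97), Cryzl1 (0.96), Plin3 (0.95) and Tekt5 (0.95), a description over the same tumour and non-tumour groups.

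Of the 4 members tested between NASH and HCC, 1 passed, as lower, in a comparison where 48.4% of all genes passed and 22.9% were lower. Idh1, the cytosolic isocitrate dehydrogenase, differed by -0.50 ± 0.15 in the mean of both genotypes (limma adjusted p = 0.00722). In IgAkMup it read 12.10, 12.14 and 12.32 in NASH and 10.59, 10.68, 11.54 and 11.91 in HCC, a difference of -1.01 ± 0.21 (limma adjusted p = 0.000454) with no overlap; 20.7% of genes fell there and 19.6% were lower without overlap. In MupHe it read 11.78, 11.85 and 11.90 in NASH and 11.28, 11.87, 11.90 and 12.33 in HCC, with a mean of 11.84 in both (95% interval of the difference -0.44 to 0.44). The IgAkMup difference minus the MupHe difference was -1.01 ± 0.30 (limma adjusted p = 0.0330), where 10% of genes passed and 5.2% were lower. Of the genes that passed there, 595 were higher and 641 lower, and 539 and 375 after quantile normalization. The column tag differs between the NASH genotypes and not between the HCC genotypes, so tag and genotype cannot be told apart here. Without the 3 tumours that stood apart, the IgAkMup difference was -0.46 (limma adjusted p = 0.00780) and the mean difference -0.14 (0.218). After quantile normalization the IgAkMup difference was -0.41 and the mean -0.10, and neither passed; nor did they with only the compared groups in the fit (limma adjusted p = 0.0563 and 0.0858).

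Idh1 differed between tumour genotypes too, in comparisons that share the IgAkMup HCC libraries. IgAkMup minus MupHe HCC was -0.66 ± 0.20 (limma adjusted p = 0.0337), and CD8kMup (11.74, 11.79 and 12.00) minus IgAkMup HCC was 0.66 ± 0.21 (0.0261; 22.9% of genes passed). The first call was lost without any one of IgAkMup HCC 5 or 9 or MupHe HCC 2, 4 or 7 (adjusted p 0.0660 to 0.138). It was also lost after quantile normalization (-0.42, adjusted p = 0.145), with only the compared groups in the limma fit (adjusted p = 0.681) and without the 3 tumours that stood apart (-0.30, adjusted p = 0.126). The call between CD8kMup and IgAkMup was lost without any one of IgAkMup HCC 5 or 9 or CD8kMup HCC 4 or 8 (adjusted p 0.0603 to 0.115). The same 3 alternatives ended it, at 0.34 (limma adjusted p = 0.223), 0.66 (0.268) and 0.12 (0.567). CD8kMup and MupHe HCC both had a mean of 11.84, in a pair where 1.32% of genes passed. From CD8kMup NC to HCC, Idh1 differed by -0.25 ± 0.23 (limma adjusted p = 0.421), with all 3 tumours below all 3 NC livers, as 27.6% of genes were.

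Me1, the cytosolic malic enzyme, passed in none of the tumour comparisons by limma with all libraries weighted alike, 0 of them at an unadjusted p under 0.05, and varied more between tumours than any other member (SD 1.06 over 11 tumours, from 8.57 to 11.84). In MupHe it read 9.55, 9.69 and 10.04 in NASH and 8.92, 9.91, 9.99 and 10.79 in HCC (difference 0.14 ± 0.52). In IgAkMup it read 9.99, 10.46 and 10.86 in NASH and 8.57, 8.82, 9.48 and 11.84 in HCC, so 3 tumours stood below all NASH livers and IgAkMup HCC 8 above them. That difference was -0.76 ± 0.52 (limma adjusted p = 0.244) with all 4 tumours. Without IgAkMup HCC 8 it was -1.48 and passed (limma adjusted p = 0.00462), as it did with library weights (-1.41, 0.0127); without the 3 tumours that stood apart it was 0.23. The mean over both genotypes was -0.31 ± 0.37 (limma adjusted p = 0.511), and -0.67 (0.0476) without IgAkMup HCC 8, and CD8kMup HCC minus NC was 0.64 ± 0.56 (0.391).

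**Figure D3:**
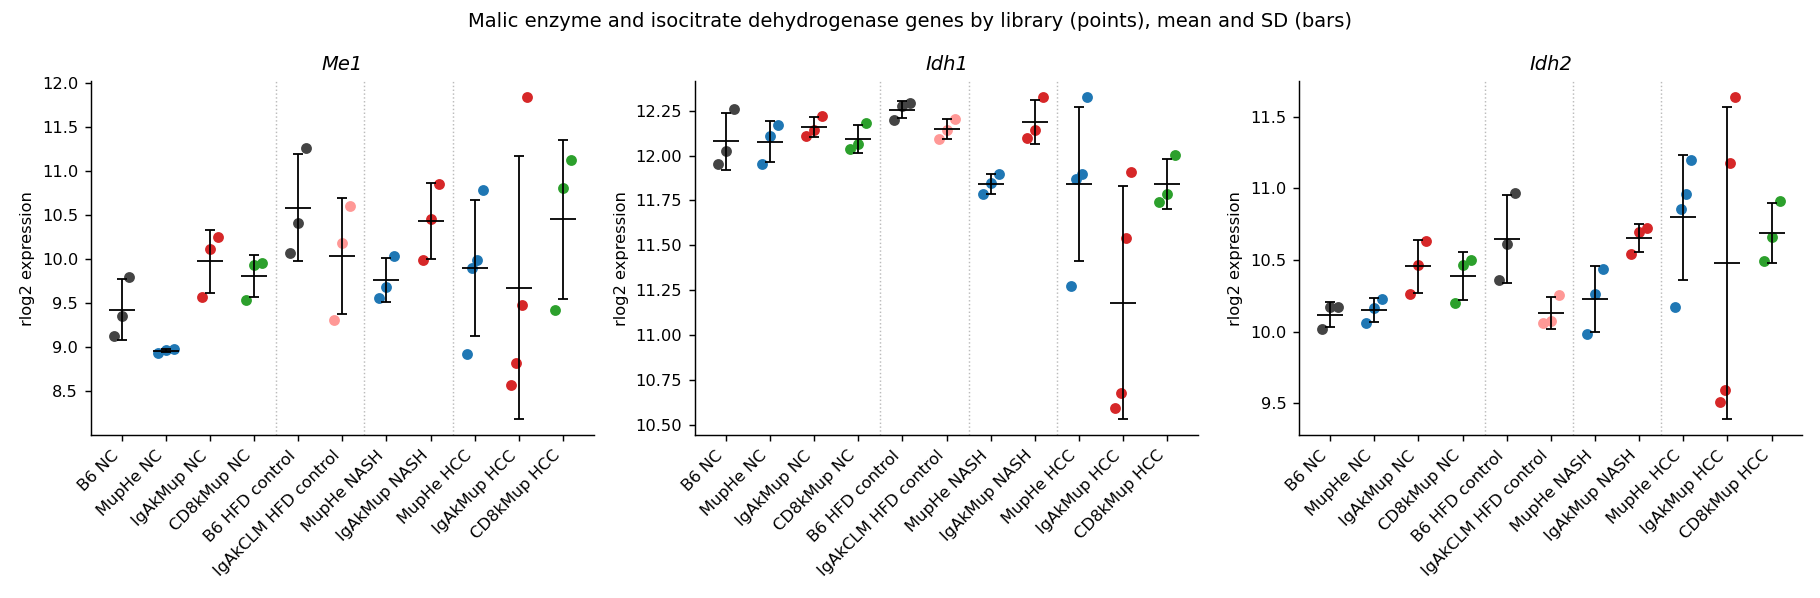
Me1, Idh1 and Idh2 (rlog2, y axes with separate ranges) in each library of 11 groups on the x axis; points are libraries, horizontal bars group means and whiskers 1 SD. Among IgAkMup tumours, 2 lie at 10.59 and 10.68 and 2 at 11.54 and 11.91 for Idh1, and 2 at 11.18 and 11.64 and 2 at 9.51 and 9.60 for Idh2.

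Idh2, the mitochondrial isocitrate dehydrogenase, differed by 0.20 ± 0.22 between HCC and NASH in the mean (limma adjusted p = 0.488). In MupHe the values were 9.99, 10.26 and 10.44 in NASH and 10.17, 10.86, 10.96 and 11.19 in HCC (0.57 ± 0.32, limma adjusted p = 0.178). In IgAkMup they were 10.54, 10.69 and 10.72 in NASH and 9.51, 9.60, 11.18 and 11.64 in HCC: 2 tumours below and 2 above every NASH liver, with a difference of -0.17 ± 0.32. The 2 high ones were IgAkMup HCC 5 and 9. Without these and MupHe HCC 3, Idh2 passed in both genotypes with opposite signs, at -1.10 in IgAkMup (limma adjusted p = 0.000104) and 0.51 in MupHe (0.0290). Only the 2 low IgAkMup tumours then remained, so the sign in IgAkMup followed from which tumours were left out. The IgAkMup response minus the MupHe response was -1.61 without the 3 (limma adjusted p = 0.000388), resting on the same 2 tumours. With all tumours it was -0.74 ± 0.45 (0.304). In CD8kMup the tumours read 10.49, 10.66 and 10.91 and HCC minus NC was 0.30 ± 0.34. For Me1 the IgAkMup response minus the MupHe response was -0.90 ± 0.73 and for Nnt -0.07 ± 0.24, neither past the threshold.

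**Figure D4:**
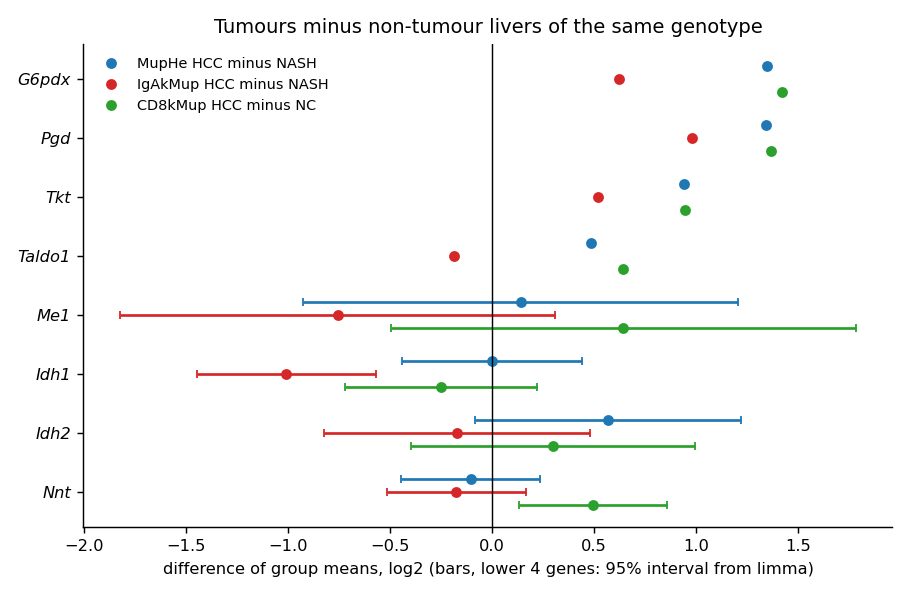
Difference of group means (log2, x axis) between tumours and non-tumour livers of the same genotype for each of the 8 genes on the y axis; points are differences, and bars the 95% interval from limma for the 4 genes tested. Taldo1 lies at -0.19 in IgAkMup, on the other side of 0 from the other pentose phosphate points, and Idh1 lies at -1.01 in IgAkMup with an interval of -1.45 to -0.57.

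Within single tumours the members did not move as 1 block. IgAkMup HCC 8 had the highest level of any tumour in Me1, Pgd, Taldo1 and Tkt and the lowest in Idh2. IgAkMup HCC 5 and 9 were the lowest pair of the 11 tumours in each of Me1, Idh1, G6pdx, Pgd, Taldo1 and Tkt. In Idh2, IgAkMup HCC 9 was the highest at 11.64, and IgAkMup HCC 5 at 11.18 came next after MupHe HCC 2 at 11.19. The difference Idh2 minus Idh1 within a library, used only to compare libraries, was 0.50 in IgAkMup HCC 5 and 1.04 in IgAkMup HCC 9. It ran from -2.24 to -1.31 in the 24 non-tumour libraries and from -2.40 to -0.31 in the other 9 tumours.

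**Figure D5:**
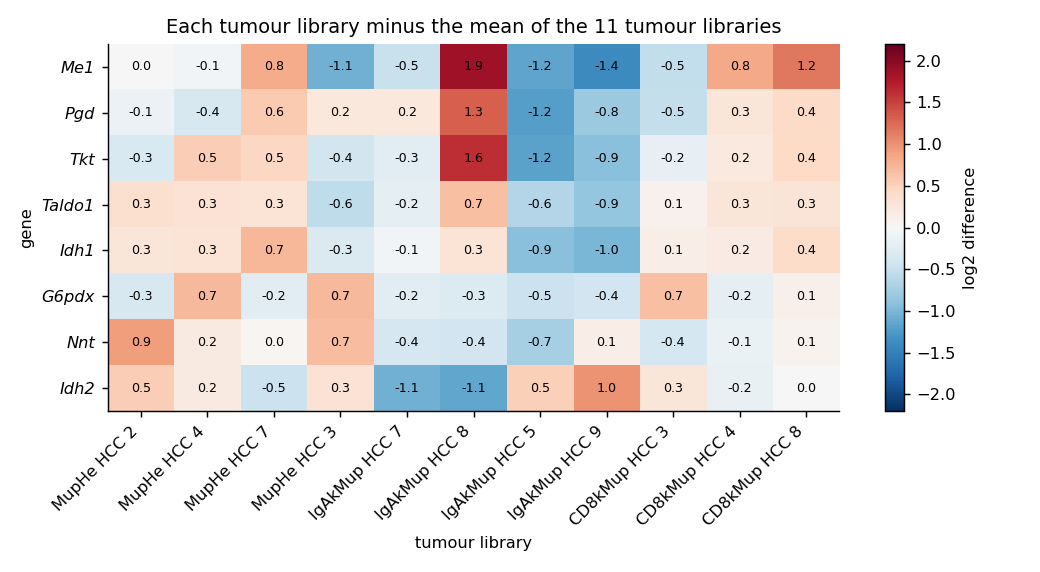
Each member (rows) in each of the 11 tumour libraries (columns), as the log2 difference from the mean of the 11, printed in each cell and shown by colour from blue (lower) to red (higher). IgAkMup HCC 8 is high in Me1, Pgd, Tkt and Taldo1 and low in Idh2, and IgAkMup HCC 5 and 9 show the opposite signs.

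The range over the 11 tumours exceeded that over the 24 non-tumour livers for 7 members and was smaller for Nnt. The share of all genes with a wider range in tumours was not counted, so this count only describes the members. The tumour values of Pgd ran from 8.97 to 11.49 and the others from 8.44 to 9.59. Those of Idh1 ran from 10.59 to 12.33, and the others only from 11.78 to 12.32. For Nnt the tumours ran from 8.65 to 10.31 and the non-tumour livers from 8.56 to 10.83.

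Markers of dividing cells and of other cell types were examined in the same mean comparison, where 25.5% of all genes were higher and 22.9% lower. All 4 markers of dividing cells (Mki67, Top2a, Ccnb1 and Cdk1) rose from NASH to HCC by the same test, and the log2 of their summed level was 6.99 to 7.84 in the NASH libraries and 7.89 to 9.44 in MupHe and IgAkMup HCC. Of 4 erythroid markers 3 were tested, and all 3 fell. Of 5 macrophage markers 2 rose and 1 fell, with a summed level of 11.36 to 11.90 in NASH and 11.07 to 12.32 in HCC. Of 4 hepatocyte markers 1 fell, and their summed level was 19.56 to 19.92 in NASH and 18.68 to 20.42 in HCC. Of 4 endothelial markers 2 rose and 1 fell, of 4 stellate markers 2 rose and 2 fell, and of 4 cholangiocyte markers 1 rose. The summed stellate level was 10.96 to 11.34 in NASH and 8.08 to 11.58 in HCC, lowest in IgAkMup HCC 9. The endothelial sum was 10.08 to 10.58 in NASH and 10.13 to 10.89 in HCC, and the cholangiocyte sum 6.80 to 7.56 and 7.23 to 9.24. Of the 2 neutrophil, 1 T cell and 2 B cell markers tested, 0 passed by limma and 0 had an unadjusted p under 0.05. The neutrophil marker Ly6g was at or below 0 in every group. The part of these shifts in the enzyme values was not tested, and in bulk tissue fewer cells of a type and less RNA per cell cannot be told apart.

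Between NASH and HFD control, none of the 7 members tested passed by limma in the mean of both pairs, 0 of them at an unadjusted p under 0.05, where 1.32% of genes passed. The differences ran from -0.39 ± 0.28 for Tkt to 0.05 ± 0.24 for Idh2 and 0.05 ± 0.27 for Pgd. With library weights Tkt passed (-0.43, limma adjusted p = 0.0368). In single pairs, Idh1 in MupHe NASH lay below all IgAkCLM HFD controls (12.09, 12.15 and 12.21), with a difference of -0.30 ± 0.23. Tkt in IgAkMup NASH lay below all B6 HFD controls (10.49, 10.51 and 11.36), with a difference of -0.48 ± 0.40. Neither passed, in pairs where 0.559% and 0.251% of genes did, and 15.1% of genes were lower without overlap in the first pair.

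Between the NASH genotypes, IgAkMup exceeded MupHe without overlap in Idh1 (0.34 ± 0.23), Idh2 (0.42 ± 0.34) and Taldo1 (0.32 ± 0.24), none past the threshold. In that pair 18% of all genes stood higher without overlap. Over all genes 70 passed as higher and 302 as lower, and 18 and 231 after quantile normalization. Between the HFD controls, IgAkCLM lay below B6 without overlap in Idh2 (-0.52 ± 0.34) and Taldo1 (-0.40 ± 0.24), as 17.5% of all genes did, again with no member tested past the threshold. With library weights the 3 NASH differences passed (limma adjusted p = 0.0189, 0.0460 and 0.00747), and so did Taldo1 between the HFD controls (0.0207).

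In NC livers no member tested passed between genotypes by limma, and 0 of 7 had an unadjusted p under 0.05 in any of the 4 comparisons made. In the mean of the 3 Mup genotypes minus B6 the largest difference after Nnt was 0.26 ± 0.31, in Pgd. Over all genes 21 passed as higher and 4 as lower in that mean, and 17 and 8 after quantile normalization. Of the 7 members other than Nnt, Me1 varied most between the NC genotype means: it read 8.94, 8.97 and 8.98 in MupHe, below all values of B6 (9.12, 9.35 and 9.80), CD8kMup (9.54, 9.94 and 9.96) and IgAkMup (9.57, 10.11 and 10.25). The difference from MupHe was 1.02 ± 0.56 in IgAkMup and 0.85 ± 0.56 in CD8kMup, the 51st and 65th largest of all genes in those pairs, where 9.52% and 8.71% were higher without overlap. With only the compared groups in the fit, both passed (limma adjusted p = 0.0111 and 0.0177). MupHe minus B6 was -0.46 ± 0.56 in Me1, where 8.75% of genes were lower without overlap. G6pdx was higher without overlap in MupHe than in B6 (0.27 ± 0.24; 9.93% of genes) and lower in CD8kMup than in MupHe (-0.34 ± 0.24; 7.72%). Idh2 was higher without overlap in IgAkMup than in MupHe (0.30 ± 0.34), while for Nnt, lower there, the share of genes was 9.82%.

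From NC to HFD control in B6 all 8 members had a higher mean, and 6 of them did not overlap, against 21.7% of all genes. Nnt alone of the 8 passed, where 20.6% of all genes did. Me1, at 9.12, 9.35 and 9.80 in NC and 10.08, 10.42 and 11.26 on HFD, differed by 1.16 ± 0.56 (limma adjusted p = 0.142). The differences were 0.53 ± 0.34 in Idh2, 0.50 ± 0.40 in Tkt, 0.47 ± 0.24 in Taldo1, 0.40 ± 0.24 in G6pdx, 0.38 ± 0.38 in Pgd and 0.18 ± 0.23 in Idh1. Diet and column tag change together here. With only the compared groups in the fit Me1, Idh2 and Taldo1 passed (limma adjusted p = 0.0272, 0.0432 and 0.0252), and with library weights Me1, Taldo1 and Tkt did (0.0102, 0.00608 and 0.0455). From NC to NASH in MupHe, Me1 differed by 0.80 ± 0.56 and Idh1 by -0.24 ± 0.23, both without overlap; 18.4% of genes were lower without overlap. In IgAkMup, Taldo1 differed by 0.34 ± 0.24 without overlap, and none of these passed. Me1 in MupHe and Taldo1 in IgAkMup passed with only the compared groups in the fit (limma adjusted p = 0.00145 and 0.0265) and with library weights (0.04995 and 0.00388).

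Other genes of NADPH metabolism, from lists set out by function, gave a mixed picture between NASH and HCC. For counts with all tumours in the mean of both genotypes, the background is the share of all genes given above, 25.5% higher and 22.9% lower. The median difference of all genes there was 0.01. Counts from other fits carry their own share. Of 10 other pentose phosphate pathway genes tested, 2 rose and 3 fell, with a median of -0.05. Shpk, a sedoheptulose kinase, differed by -0.90 ± 0.15, Dera, deoxyribose-phosphate aldolase, by -0.72 ± 0.12, and Prps1l3, a phosphoribosyl pyrophosphate synthetase relative, by -0.61 ± 0.08. Rpia, ribose-5-phosphate isomerase, rose by 0.44 ± 0.15.

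Of 8 other genes whose enzymes reduce NADP or make it, 1 rose and 5 fell, with a median of -0.38. Mthfd2, a mitochondrial folate dehydrogenase, rose by 1.22 ± 0.19, from 4.25 to 4.90 in NASH to 4.96 to 6.49 in HCC. Its cytosolic relative Mthfd1 differed by -0.86 ± 0.09, glutamate dehydrogenase Glud1 by -0.84 ± 0.17 and the NAD kinase Nadk by -0.57 ± 0.13.

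Among genes whose enzymes consume NADPH, 7 of 12 reductases of redox defence rose and 2 fell, with a median of 0.33. Cbr3 and Cbr1, carbonyl reductases, rose by 4.28 ± 0.26 and 2.05 ± 0.14, the quinone reductase Nqo1 by 2.38 ± 0.13 and Ptgr1, prostaglandin reductase, by 1.44 ± 0.16. Nqo1 read 6.95 to 7.59 in NASH and 8.75 to 10.52 in HCC. Of 14 genes of sterol and fatty acid synthesis, 1 rose and 4 fell, with a median of -0.12. Squalene epoxidase Sqle rose by 1.41 ± 0.38, while the steroid reductase Srd5a1 differed by -1.74 ± 0.15, the sterol reductase Tm7sf2 by -0.83 ± 0.22 and Hsd17b12, of fatty acid elongation, by -0.81 ± 0.12. Without the 3 tumours that stood apart, that list had 6 genes higher and 3 lower, where 47.1% of all genes passed in either direction.

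Of 10 lipogenic partners of malic enzyme, 3 fell: Thrsp, a lipogenic nuclear protein, at -2.04 ± 0.59, stearoyl-CoA desaturase Scd1 at -1.06 ± 0.44 and malate dehydrogenase Mdh1 at -0.89 ± 0.13. The Scd1 call (limma adjusted p = 0.0488) was lost in 15 of its alternatives. Without the 3 tumours the list had 2 genes higher and 1 lower, where 47.1% of all genes passed in either direction. Thrsp spread from 6.07 to 10.85 over these tumours and from 9.88 to 11.05 over NASH. Of 14 tricarboxylic acid cycle genes, 9 fell and 1 rose, with a median of -0.44. In MupHe 3 fell and 1 rose, with a median of -0.11, where 30.7% of all genes passed in either direction. In IgAkMup 10 fell, with a median of -0.82, where 20.7% of all genes were lower. In the IgAkMup minus MupHe response 5 of the 14 passed as lower, where 5.2% of all genes did. Without the 3 tumours that stood apart, 3 rose and 3 fell in MupHe, where 34% of all genes passed in either direction. In IgAkMup 11 then fell, where 40.7% of all genes passed in either direction. The subunit genes Dlst, Sdha, Idh3a and Sucla2 differed by -0.93 ± 0.14, -0.91 ± 0.12, -0.77 ± 0.12 and -0.71 ± 0.14. Among 14 regulators 2 rose and 5 fell: the mitochondrial deacetylase Sirt3 differed by -0.74 ± 0.14, the lipogenic factor Srebf1 by -0.57 ± 0.18 and the thyroid hormone receptor Thrb by -0.51 ± 0.12, and Trp53 rose by 0.67 ± 0.08. Between NASH and HFD control, where 1.32% of all genes passed, 1 gene of these 7 lists passed. Txnrd2, the mitochondrial thioredoxin reductase, differed by -0.30 ± 0.08 (limma adjusted p = 0.0472, lost in 12 of its alternatives).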

How the data were processed

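Liver RNA of 35 libraries was measured by polyA-selected, stranded RNA sequencing, per the labels' protocols. The table deposited by the authors holds regularized log2 (rlog2) values per gene symbol, which run from -2.39 to 20.9. Per the submitters' processing notes, the build was mm10, and STAR with Cuffdiff (29 HFD samples) or STAR with HOMER and the authors' DESeq2 (12 NC samples) were used. Their versions and roles are not stated there. Comparisons of NC with HFD groups therefore also cross this difference in noted processing. Columns were tied to groups by their names. The 6 columns that fit both remaining groups (CD8kCLM HFD control and CD8kMup NASH) were not used.

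Genes with a mean of at least 3 (12337 of 24511) were fitted in limma 3.58.1 (R 4.3.3), with 1 model over all 11 groups, empirical Bayes with trend and Benjamini-Hochberg adjustment over these genes; SEs and 95% intervals come from that model. A single spread over all groups enters each test, that of the tumours included. The fit was tested on simulated data. Named list genes are up to 4 per list with the largest absolute difference among those past 0.05. Markers were summed after unlogging. Members and lists were chosen with earlier results of these data known. Alternatives changed the filter, scaling, variance model, groups in the fit and library set; leaving out the 3 tumours that stood apart was added after seeing the data. Sequencing depth is unknown, so no interval for it is given.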

Additional observations from a re-analysis of the deposited data

Results flagged for a closer look

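The HCC minus NASH difference of Idh1 was -1.01 ± 0.30 in IgAkMup minus MupHe (limma adjusted p = 0.0330), a test of the difference itself. All 4 IgAkMup tumours lay below their NASH livers, and MupHe tumours lay on both sides of theirs. The NASH groups of these genotypes carry different column tags, so tag and genotype cannot be told apart in this difference. With IgAkMup NASH in place of MupHe NASH, the MupHe difference moved from -0.000906 to -0.346. That exchange also changes the genotype. The call was lost without a filter (limma adjusted p = 0.0510), after quantile normalization (-0.62, adjusted p = 0.183) and with only the compared groups in the fit (0.283). It was also lost without any one of MupHe HCC 4 or 7, IgAkMup HCC 5 or 9, MupHe NASH 1, 2 or 6, or IgAkMup NASH 2 or 3 (adjusted p 0.0561 to 0.0975). Without the 3 tumours that stood apart it was -0.65 (limma adjusted p = 0.0144).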

How the results depend on the processing

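Of 118 alternative values of the tested member results past the threshold, 117 kept their direction and 81 their call. The exception was Nnt in HFD control minus NC, -0.885 with IgAkCLM in place of B6 HFD control, an exchange that also changes the genotype and moved the members' median from 0.49 to 0.11. Of 1635 values not past it, 118 changed sign and 34 gained a call. The causes were not tested. The members' median for IgAkMup HCC minus NASH went from -0.17 to 0.24 after quantile normalization and 0.27 without the 3 tumours that stood apart. For the IgAkMup minus MupHe response it went from -0.70 to -0.32 without those 3. For IgAkMup minus MupHe HCC it was -0.34, and -0.73 to -0.31 leaving out 1 library, the lowest without IgAkMup HCC 8.

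Among values not past the threshold, signs changed. Without the 3 tumours, the mean HCC minus NASH difference was 0.35 for Me1 and -0.29 for Idh2, and Me1 was 0.23 in IgAkMup. In MupHe, IgAkMup NASH in place of MupHe NASH gave 0.63 for Nnt and -0.53 for Me1, and Idh1 was 0.21 after quantile normalization, 0.0633 with library weights and 0.19 without the 3. In IgAkMup, quantile normalization gave 0.00981 for Nnt and 0.29 for Idh2, and library weights 0.16 for Idh2. The Nnt response difference was 0.0608 after quantile normalization. Idh1 in CD8kMup minus MupHe HCC was -0.0852 after quantile normalization, -0.0752 with library weights and -0.19 without the 3. Leaving out 1 library gave, for MupHe HCC minus NASH, -0.26 to 0.0384 for Nnt, -0.16 to 0.47 for Me1 and -0.16 to 0.19 for Idh1. It gave -0.56 to 0.15 for Idh2 in IgAkMup, -0.24 to 0.0822 for the Nnt response difference and -0.19 to 0.16 for Idh1 in CD8kMup minus MupHe HCC. For NASH minus HFD control it gave -0.0191 to 0.13 for Idh2 and -0.0346 to 0.18 for Pgd.

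With only the compared groups in the fit, counts of genes past the threshold fell from 3784 to 1212 (MupHe HCC minus NASH), 5408 to 3219 (IgAkMup HCC minus NASH), 1236 to 13 (response difference), 1249 to 0 and 163 to 0 (IgAkMup and CD8kMup minus MupHe HCC by limma, with 934 and 709 at an unadjusted p under 0.05) and 2831 to 328 (CD8kMup minus IgAkMup HCC). They rose in NASH minus HFD control from 163 to 855, in its 2 pairs from 69 to 752 and 31 to 158, from 372 to 1061 between the NASH genotypes, and in NASH minus NC from 238 to 1941 (MupHe) and 1594 to 3609 (IgAkMup). With library weights these 6 were 2386, 1941, 717, 3320, 2479 and 4961, and CD8kMup HCC minus NC went from 4165 to 6280, the HFD controls from 637 to 2345 and B6 HFD control minus NC from 2538 to 4111 (285 with IgAkCLM in place). IgAkMup and CD8kMup minus MupHe HCC were then 375 and 30, and 1987 and 529 without the 3 tumours, where the response difference was 2128. IgAkMup NASH minus NC was 155 with MupHe NASH in place, and IgAkMup NASH minus B6 HFD control 13 after quantile normalization. Leaving out 1 library gave 528 to 2436 for the response difference, 583 to 2894 and 9 to 1087 for IgAkMup and CD8kMup minus MupHe HCC, 83 to 187 for NASH minus HFD control and 112 to 529 between the NASH genotypes. No scaling moved the median of all genes by over 0.1.

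In the NC groups, samples of the same number did not deviate together (median r 0.02, from -0.21 to 0.23 over 18 pairs), so the numbers only name samples. The NC mean against B6 had 25 calls, 67 with no filter, 291 with library weights, 462 with the NC groups alone and 384 with those and the replicate block. With the block, MupHe minus B6, IgAkMup minus MupHe and CD8kMup minus MupHe had 113, 9 and 3 calls against 6, 2 and 2 (87, 199 and 25 with only the compared groups, 151, 101 and 79 with library weights), and the Me1 differences of the last 2 (1.02 and 0.85) did not pass, as without it (limma adjusted p = 0.101 and 0.225). No paired analysis was possible for the HFD groups because their columns carry none of the title's replicate numbers. Unknown depth and few libraries a group limit the precision.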
